A study of Mus musculus with 21 samples.

Results

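Monocytes sorted from the peritoneal cavity of mice 4 h after an injection of zymosan were compared with monocytes sorted from the bone marrow of naive mice. The 6 arrays compared, of 21 in the series, were taken by their source label alone, 3 for each population, and the comparison covers the 18194 genes that have a probe set annotated to 1 gene symbol. All mice were female C57BL/6 animals of 7 to 8 weeks with no stated genetic change. The 4 h cells came from mice given zymosan into the peritoneum, were collected by lavage of the cavity and were sorted as Ly-6B+ Ly-6G- cells. The bone marrow cells came from untreated mice, were flushed from the bones, passed through red cell lysis and sorted with the same Ly-6B+ Ly-6G- gate. Ly-6B is a surface antigen of monocytes and neutrophils, and Ly-6G marks neutrophils, which the gate was set to leave out. The other 15 arrays hold peritoneal cells of 18, 72 and 168 h and resident macrophages of naive mice. They serve here to place a level, and they also enter the filter, the choice of probe sets and the estimate of spread. Each group is called 3 biological replicates in the sample titles, which do not say how many mice gave a sample. The p-values thus measure the spread between samples within the 7 groups.

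Monocytes are produced in the bone marrow from dividing precursors that also give rise to granule-bearing cells, and they leave it for the blood under the control of chemokine receptors. Zymosan is a particle of yeast cell wall that is recognised by the C-type lectin dectin-1, by Toll-like receptors and, once coated, by complement receptors. In textbook accounts these receptors feed into NF-kB, AP-1 and related factors, and monocytes that enter such a site take up particles, release cytokines, chemokines, lipids and proteases, and begin to take on macrophage features. The groups differ in tissue, in exposure to zymosan and in the way the cells were collected, and these differences cannot be told apart. In RNA from sorted populations, fewer cells of a kind and less RNA per cell cannot be told apart either.

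Of the 18194 genes, 12155 had a signal above the filter in at least 3 of the 21 arrays and were tested with limma. Genes are called here when the adjusted p (Benjamini-Hochberg) is under 0.05 and the log2 fold change is at least 1 in size. A gene said to have changed by a value is given with its log2 fold change. The words rose and fell are used for called genes only. At 4 h 905 genes (7.45% of those tested) rose and 1759 (14.5%) fell, 21.9% either way. The counts for gene groups below are to be read against these shares. Changes of at least 3 on the log2 scale were found in 121 genes that rose and 259 that fell. The 4 h arrays did not overlap the bone marrow arrays for 886 of the genes that rose and 1727 of those that fell. Such separation was found in 54.7% of all genes tested, with 4 h higher in 20.1% and lower in 34.6%. Values are MAS5 signals on a linear scale, which compare 1 gene between arrays and not genes with each other. Cma1, Cpa3, Gzma and Icam2, not all of them called, are left aside here. Of the other genes named below that were called, the arrays of the 4 h and bone marrow groups overlap for Hdc and Itga6. They are apart for all others, and the largest adjusted p is 0.0409. Where a gene list below has no called gene in a direction, limma at an unadjusted p under 0.05 gave between 0 and 8 of its genes in that direction. A log2 fold change is that of signal + 15 and is given with its standard error, so folds of genes near the floor are understated. 17 of the genes that rose had all bone marrow arrays under 15, and 34 of those that fell had all 4 h arrays under 15.

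Median signals per array were 67.3 to 75.1 at 4 h and 69.4 to 84.3 in bone marrow. Across genes, which are not independent of each other, the mean correlation of an array with the others of its group was 0.979 to 0.980 at 4 h and 0.971 to 0.977 in bone marrow. The 3'/5' ratio of the Gapdh control probe sets, a sign of RNA integrity, was 2.47 to 2.70 at 4 h and 2.17 to 2.84 in bone marrow. Over the genes tested the difference of the array medians, 4 h minus bone marrow, was -0.36 in log2 units. The median log2 fold change was -0.14. With every array set to a common median, 1598 genes (13.1%) were called higher and 1110 (9.13%) lower, so the share of calls that are higher was 59.0%, against 34.0% with the deposited scaling. All 905 genes that rose were also called higher with the common median, and 1110 of the 1759 that fell were also called lower. Called genes named below that were not called with the common median are pointed out where they stand.

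**Figure D1:**
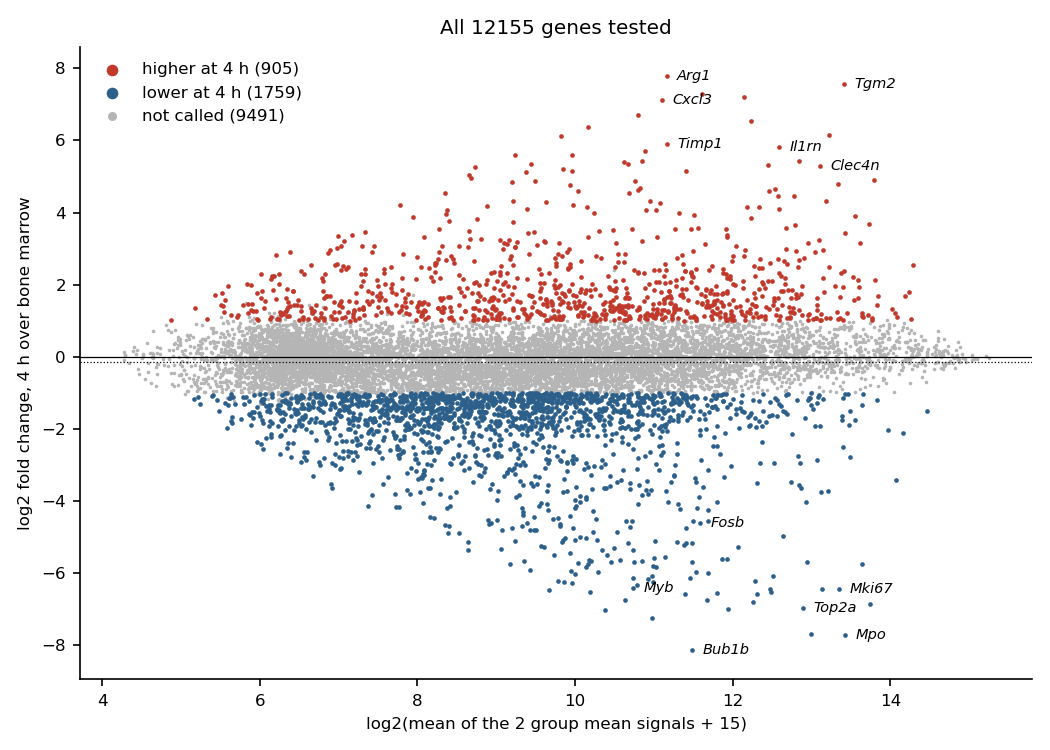
Change of every gene tested at 4 h against its level. The x axis is log2 of the mean of both group means + 15, the y axis the log2 fold change of 4 h over bone marrow, red points are the 905 genes that rose, blue points the 1759 that fell, grey points were not called, and the dotted line is the median gene at -0.14. Arg1 and Tgm2 stand at the top and Bub1b and Mpo at the bottom.

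The identity of the sorted cells was checked with marker lists. Of 16 tested genes of classical monocytes, 3 rose, 3 fell and the median log2 fold change was 0.17; their summed signal was 272260 to 280020 at 4 h and 232230 to 249830 in bone marrow. Csf1r, the receptor for the macrophage growth factor CSF1, had signals of 24406, 26864 and 28435 at 4 h, against 25219, 23602 and 24674 in bone marrow, and the groups overlapped. Ccr2, the receptor through which monocytes leave the marrow, had 17562, 16109 and 15802 at 4 h, against 12818, 13536 and 9680.4 in bone marrow; the arrays did not overlap, but the change (log2 fold change 0.47 ± 0.33, adjusted p = 0.273) was under the threshold. Other probe sets of Ccr2, not tested here, differed by 1.14, 0.19 and 1.72 on the log2 scale, 4 h over bone marrow. Both populations thus carried these markers of their label at high signal.

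Vcan, the proteoglycan versican, had 22127, 21020 and 24022 at 4 h, against 1359, 2188 and 1106 in bone marrow (log2 fold change 3.90 ± 0.23, adjusted p = 2.50e-11), and Cd14, the lipopolysaccharide co-receptor, had 31978, 33924 and 36492 at 4 h, against 4906, 5030.4 and 7956 in bone marrow (log2 fold change 2.55 ± 0.14, adjusted p = 1.46e-11). Spn, which encodes CD43, had 525, 536 and 342 at 4 h, against 5890, 5277 and 6289 in bone marrow (log2 fold change -3.62 ± 0.29, adjusted p = 2.55e-09), and every 4 h array lay below every bone marrow array. Klf4 and Irf8, both transcription factors of monocyte development, fell by 2.04 and 1.65 on the log2 scale. Irf8 had 8186, 5011 and 3095 at 4 h, against 17966, 16074 and 13792 in bone marrow, with the 4 h arrays spread more widely than the marrow arrays.

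Markers of other cells moved with the comparison, and their part in the results below was not tested. Primary granule genes, which belong to dividing myeloid precursors, summed to 1301 to 1684 at 4 h and 33867 to 91000 in bone marrow, and 7 of 7 fell. Secondary granule and neutrophil genes summed to 11110 to 11924 at 4 h and 64915 to 216590 in bone marrow, and 8 of 11 fell. The 3 not called were Padi4, Cxcr2 and Cd177, the last with means of 5019 at 4 h and 5313 in bone marrow. Progenitor genes summed to 633 to 705 at 4 h and 2674 to 9383 in bone marrow (4 of 10 fell). In all 3 lists bone marrow replicate 3 held the highest sum. Markers of resident peritoneal macrophages summed to 21925 to 31263 at 4 h and 1550.3 to 2089 in bone marrow, and 10 of 14 rose and 1 fell, while the same genes summed to 302440 to 328400 in resident macrophages themselves. The gene that fell, Icam2, averaged 487 at 4 h and 1045 in bone marrow (log2 fold change -1.14), a fall not called with the common median. Saa3, an acute-phase gene that inflammatory signals also induce, made up most of the 4 h sum, with 17042, 19217 and 20343 in the 3 arrays. Gata6, the factor that defines resident peritoneal macrophages, had 68.5, 129 and 67.0 at 4 h, against 47.5, 51.5 and 66.5 in bone marrow, and was not called.

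B cell genes summed to 1585 to 2524 at 4 h and 1333 to 1543 in bone marrow, and 2 rose and 0 fell of the 9 tested. Ms4a1, which encodes CD20, had 712, 822 and 914 at 4 h, against 167, 134 and 249.6 in bone marrow and rose, although its call was lost without bone marrow replicate 2 (log2 fold change 1.91, adjusted p = 0.06). T and NK cell genes summed to 784 to 973 at 4 h and 472 to 636 in bone marrow (1 rose and 0 fell of 4 tested), with Cd3d, Cd3e and Cd3g below the signal filter. The gene that rose was Gzma, granzyme A, which averaged 314 at 4 h and 63.0 in bone marrow (log2 fold change 1.90). Mast cell and basophil genes summed to 3482 to 5038 at 4 h and 582 to 3211 in bone marrow (2 rose and 0 fell of 5 tested), of which Hdc, the histamine-forming enzyme that other myeloid cells can also make, gave the largest part (3248, 2633 and 4306 at 4 h, against 352, 223 and 2831 in bone marrow). Mcpt4 and Fcer1a, 2 defining mast cell genes, were below the filter. Cma1 and Cpa3, also of this list, averaged 240 and 297 at 4 h, against 72.7 and 123 in bone marrow (log2 fold changes 1.55 and 1.16). Hdc was 1 of the 2 genes that rose, so Cma1 and Cpa3 were not both called. Ms4a2 averaged 31.0 at 4 h and 94.6 in bone marrow. Among the sums of erythroid, eosinophil, dendritic cell, mesothelial and platelet genes the highest single array was that of platelet genes in bone marrow, which summed to 485 to 665 at 4 h and 594 to 1216 in bone marrow (0 rose and 0 fell of 5 tested). Erythroid genes summed to 255 to 446 at 4 h and 797 to 949 in bone marrow, and 3 of 6 tested fell, namely Car1, Ermap and Slc4a1. The Slc4a1 call was lost with the common array median and, in limma, without 4 h replicate 1 (adjusted p = 0.0567), 4 h replicate 3 (adjusted p = 0.106), marrow replicate 1 (adjusted p = 0.0584) or marrow replicate 2 (adjusted p = 0.0904). The 1 eosinophil gene above the filter, Prg2, also fell, with 33.0, 46.1 and 8.10 at 4 h, against 187, 115 and 617 in bone marrow. Of the dendritic cell and mesothelial genes, 2 and 2 were tested and none was called, nor did any pass an unadjusted p under 0.05 in limma.

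**Figure D2:**
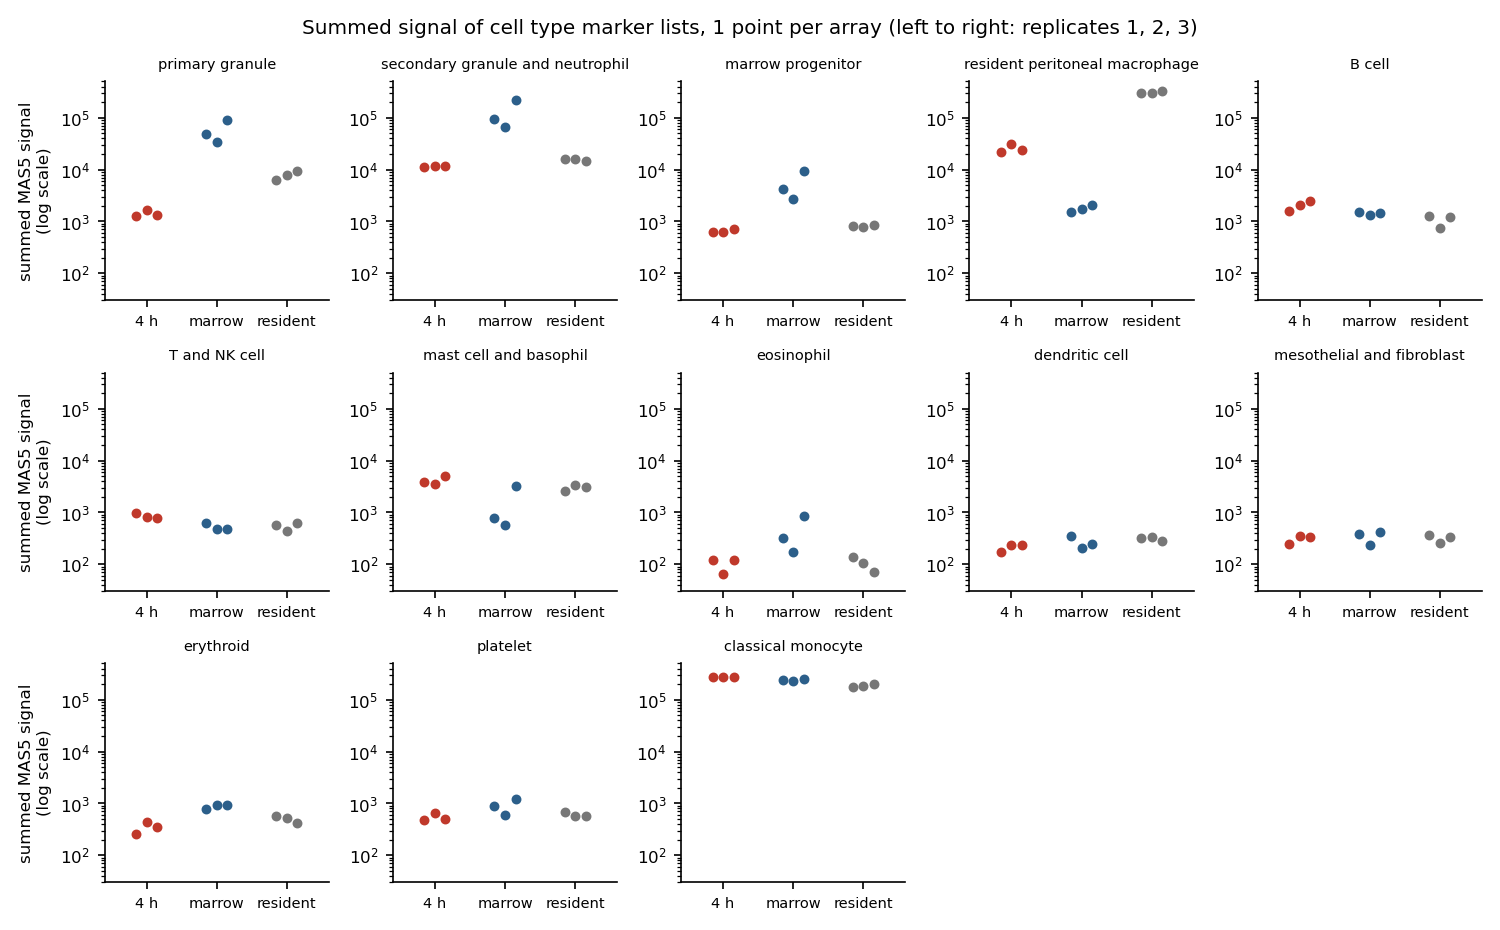
Summed MAS5 signal of each cell type marker list in every array, on a log axis, for 4 h monocytes (red), bone marrow monocytes (blue) and resident peritoneal macrophages (grey). Granule and progenitor lists are high in bone marrow, most of all in replicate 3, and the resident macrophage list lies between bone marrow and resident macrophages at 4 h. The monocyte list is high in every group, highest at 4 h and lowest in resident macrophages.

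The largest increases joined an enzyme of arginine breakdown, matrix and endocytic genes, and mediators. Arg1, which encodes arginase 1 (probe set 1419549_at), had signals of 6807, 4929 and 1931 at 4 h, against 2.69, 5.44 and 1.59 in bone marrow (log2 fold change 7.79 ± 0.31, adjusted p = 9.97e-14); replicate 3 was the lowest of the 4 h arrays and still far above the marrow, where all 3 arrays lay at the floor. Tgm2, the tissue transglutaminase that cross-links proteins (1433428_x_at), had 23685, 21357 and 19686 at 4 h, against 53.6, 100.1 and 167 in bone marrow (log2 fold change 7.58 ± 0.29, adjusted p = 5.70e-14). Il1rn, the interleukin-1 receptor antagonist (1451798_at), had 11391, 12774 and 12193 at 4 h, against 176, 196 and 230.2 in bone marrow (log2 fold change 5.82 ± 0.21, adjusted p = 1.37e-14). Cxcl3, a neutrophil-attracting chemokine (1438148_at), had 4985, 4296 and 3747 at 4 h, against 7.36, 14.4 and 31.2 in bone marrow (log2 fold change 7.12 ± 0.28, adjusted p = 8.15e-14). For each of these the lowest 4 h array lay far above the highest marrow array. Bub1b, the spindle checkpoint kinase BUBR1 (1447363_s_at), went the other way with 3.38, 5.96 and 6.26 at 4 h, against 5793, 5172 and 6098 in bone marrow (log2 fold change -8.14 ± 0.52, adjusted p = 1.07e-10), and its other 2 probe sets above the filter changed by -4.88 and -1.25.

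Serpinb2, the plasminogen activator inhibitor PAI-2, had 5227, 6530.4 and 6842 at 4 h, against 21.1, 24.2 and 27.9 in bone marrow, with a narrow spread in both groups. Dab2, a clathrin adaptor of endocytosis, had 10344, 8846 and 7714 at 4 h, against 45.8, 32.6 and 60.7 in bone marrow. Acod1, the mitochondrial enzyme that makes itaconate, had 5671, 2955 and 1882 at 4 h, against 8.32, 5.36 and 44.7 in bone marrow, and its 4 h arrays differed among themselves about as those of Arg1 did, replicate 1 highest and replicate 3 lowest. Slc39a14, the zinc and iron importer ZIP14, had 9713, 8902 and 9831 at 4 h, against 75.2, 68.8 and 124 in bone marrow (log2 fold change 6.54 ± 0.20, adjusted p = 2.08e-15). Rgl1, a guanine nucleotide exchange factor of the Ral pathway, had 1817, 1736 and 1736 at 4 h, against 5.03, 7.03 and 22.3 in bone marrow. Mmp19, a matrix metalloproteinase, had 2123, 2061 and 2585 at 4 h, against 4.64, 31.7 and 6.71 in bone marrow. Timp1, an inhibitor of such enzymes, had 3775, 4422 and 5313 at 4 h, against 80.8, 50.2 and 53.9 in bone marrow. Flrt3, a cell surface adhesion protein, had 912, 1157 and 1438 at 4 h, against 4.16, 2.05 and 26.7 in bone marrow (log2 fold change 5.61 ± 0.40, adjusted p = 4.35e-10). Gja1, the gap junction protein connexin 43, had 2261, 1642 and 1906 at 4 h, against 14.5, 19.5 and 49.5 in bone marrow (log2 fold change 5.58 ± 0.30, adjusted p = 9.17e-12). Dusp16, a phosphatase of JNK and p38 kinases, had 3381, 3941 and 3733 at 4 h, against 5.31, 82.8 and 158 in bone marrow, where the marrow arrays differed widely at low signal. Saa3 completed the 15 genes with the largest increases (log2 fold change 6.14 ± 0.18, adjusted p = 1.36e-15).

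Among the 15 genes with the largest decreases, 11 serve cell division and 4 are granule genes. Shcbp1, a protein of the dividing cell's midbody, had 26.6, 5.11 and 6.10 at 4 h, against 4064, 3422 and 4449 in bone marrow (log2 fold change -7.25 ± 0.54, adjusted p = 7.45e-10). Cdca5, the cohesin protector sororin, had 35.3, 51.7 and 51.0 at 4 h, against 8707, 6430.4 and 8154 in bone marrow. Cdca8, the chromosomal passenger protein borealin, had 77.6, 87.8 and 101 at 4 h, against 10111, 8223 and 11827 in bone marrow. Ncapd2, a condensin subunit, had 57.5, 37.9 and 30.5 at 4 h, against 6089, 4842 and 5017 in bone marrow (log2 fold change -6.57 ± 0.48, adjusted p = 6.76e-10). Nusap1, which bundles spindle microtubules, had 47.3, 45 and 42.4 at 4 h, against 6835, 5839 and 6616 in bone marrow. E2f8, a repressor of the E2F family, had 103, 53.3 and 34.4 at 4 h, against 6980.3, 5511 and 8588 in bone marrow. For these 6 genes the 3 marrow arrays lay within a narrow band. The granule genes Mpo, Camp, Ngp and Ctsg, the myeloperoxidase, cathelicidin, neutrophilic granule protein and cathepsin G genes, varied more in marrow: Camp had 103, 48.8 and 17.7 at 4 h, against 11230, 5844 and 31716 in bone marrow (log2 fold change -7.67 ± 0.62, adjusted p = 2.66e-09) and Ctsg 82.8, 105 and 112 at 4 h, against 10281, 6618 and 17247 in bone marrow (log2 fold change -6.53 ± 0.59, adjusted p = 1.29e-08), with marrow replicate 3 the highest for both.

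**Figure D3:**
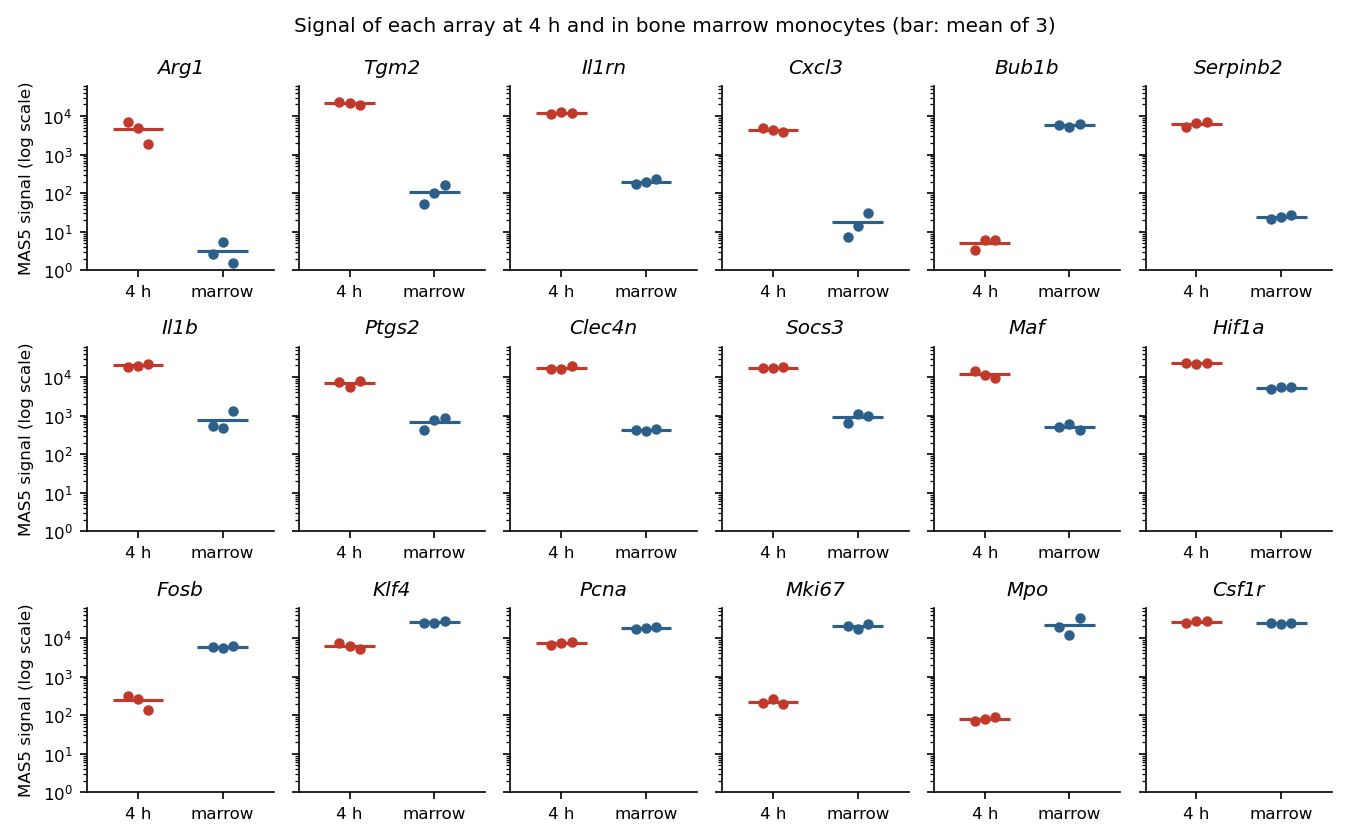
Signal of each array for 18 genes on a log axis, 4 h monocytes (red) left and bone marrow monocytes (blue) right, with a bar at the mean of 3 arrays. The groups are far apart for Arg1, Tgm2, Il1rn, Cxcl3, Bub1b and Mpo, nearer for Pcna and Klf4, and overlap for Csf1r.

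Promoters of 4 genes with some of the largest changes are shown, chosen because each holds the letters of an element through which NF-kB, AP-1 or the DREAM repressor of cell cycle genes is known to act. Of the 15 genes with the largest increases 11 had a promoter window, and 2 of these held the letters of NF-kB and 3 those of AP-1. The windows of Dab2, Saa3, Rgl1, Timp1, Dusp16 and Flrt3 held neither. Of the 14 windows among the 15 largest decreases, 9 held the CHR, and those of Nuf2, Ngp, Rrm2, Nusap1 and Bub1 did not. RefSeq held a promoter window, 250 bases before to 50 after the start site on GRCm38.p6, for 9865 of the 12155 genes tested. Capitals mark the match to NF-kB (GGANTTTCC), AP-1 (TGANTCA) or the cell cycle homology region, CHR (TTTGAA). Both strands were searched, and none of these strings contains another. The windows are Serpinb2 at chr1:107511173-107511472 on the plus strand, Cxcl3 at chr5:90785851-90786150 on the plus strand, Acod1 at chr14:103046762-103047061 on the plus strand and Bub1b at chr2:118597961-118598260 on the plus strand.
Serpinb2: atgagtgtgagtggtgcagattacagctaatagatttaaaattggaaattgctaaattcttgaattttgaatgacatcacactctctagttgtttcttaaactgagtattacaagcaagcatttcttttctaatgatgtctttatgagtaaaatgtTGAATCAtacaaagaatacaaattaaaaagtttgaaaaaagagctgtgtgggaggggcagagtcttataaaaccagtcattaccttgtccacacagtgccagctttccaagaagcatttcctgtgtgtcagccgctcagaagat
Cxcl3: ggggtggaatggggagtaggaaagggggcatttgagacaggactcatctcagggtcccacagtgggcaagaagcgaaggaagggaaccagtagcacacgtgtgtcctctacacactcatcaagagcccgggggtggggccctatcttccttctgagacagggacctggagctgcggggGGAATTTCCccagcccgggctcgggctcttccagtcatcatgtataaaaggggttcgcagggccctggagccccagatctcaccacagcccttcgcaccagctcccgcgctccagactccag
Acod1: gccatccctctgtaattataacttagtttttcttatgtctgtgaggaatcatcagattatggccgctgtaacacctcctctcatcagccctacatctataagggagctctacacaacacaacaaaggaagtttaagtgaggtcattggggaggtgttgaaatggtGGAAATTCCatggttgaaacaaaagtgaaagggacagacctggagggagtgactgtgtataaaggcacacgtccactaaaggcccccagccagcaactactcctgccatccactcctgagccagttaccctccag
Bub1b: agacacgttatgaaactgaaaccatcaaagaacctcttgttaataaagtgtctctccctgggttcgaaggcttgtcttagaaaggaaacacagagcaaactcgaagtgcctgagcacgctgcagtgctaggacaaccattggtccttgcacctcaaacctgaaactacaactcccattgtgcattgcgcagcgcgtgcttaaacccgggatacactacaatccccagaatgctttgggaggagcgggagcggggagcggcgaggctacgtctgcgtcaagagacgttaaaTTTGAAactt
The AP-1 match of Serpinb2 lies 94 bases before the start site, the NF-kB matches of Cxcl3 and Acod1 lie 72 and 85 bases before it, and the CHR match of Bub1b lies 40 bases after it. The 6 letters of the CHR are common, since 18.1% of all RefSeq promoters hold them, among them those of Mpo and Camp. The Serpinb2 window holds the CHR letters too, left here in lower case. A match is a description, not a site or a cause.

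The NF-kB letters stood in 20 of 722 promoters of genes that rose (2.77%), in 1.04% of those that fell and in 1.31% of the genes tested, against 1.23% of all promoters. For AP-1 the shares were 9.28% of genes that rose, 3.74% of genes that fell, 5.34% of genes tested and 7.93% of all promoters. The CHR letters stood in 17.6% of genes that fell and 7.89% of genes that rose, beside 11.9% of genes tested. Of the mitosis and kinetochore genes 20 of 29 promoters held the CHR, and of the replication genes 3 of 26. The E2F letters (TTTGGCGC or TTTCCCGC) showed the opposite split, in 1 of 29 mitosis promoters and 9 of 26 replication promoters, beside 3.16% of genes tested and 1.63% of all promoters. No test was made of these shares.

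Part of the receptors that sense microbes, complement and immune complexes rose. Of 19 Toll-like receptor and adaptor genes 8 rose and 0 fell (median log2 fold change 0.82; 12 were called higher with the common array median). Tlr4, the lipopolysaccharide receptor, had 3019, 2556 and 2326 at 4 h, against 227, 353 and 267 in bone marrow (log2 fold change 3.17 ± 0.15, adjusted p = 1.28e-12). Tlr1, which pairs with TLR2 for bacterial lipopeptides, had 4295, 3315 and 3170.4 at 4 h, against 729, 747 and 514 in bone marrow (log2 fold change 2.42 ± 0.16, adjusted p = 1.49e-10). Myd88, the adaptor shared by most of these receptors, had 9364, 10113 and 10186 at 4 h, against 2495, 3457 and 2418 in bone marrow. Tlr5, the flagellin receptor, had 375, 372 and 379 at 4 h, against 153, 119 and 103 in bone marrow. Tlr2 itself had 13372, 13141 and 13694 at 4 h, against 7031, 7772 and 8029 in bone marrow, with no overlap but a log2 fold change of 0.82, under the threshold, and was called higher with the common median (1.18).

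C-type lectins, the family of the beta-glucan receptor, gave 7 increases and 0 decreases among 15 tested genes. Clec4n, which encodes dectin-2, a receptor of fungal mannans, had 15902, 15865 and 19596 at 4 h, against 422, 405 and 444 in bone marrow (log2 fold change 5.28 ± 0.19, adjusted p = 1.32e-14). Clec4d, which encodes the related receptor MCL, had 24607, 26330 and 31360 at 4 h, against 752, 896 and 1083 in bone marrow. Clec4e, which encodes Mincle, had 23275, 24602 and 27278 at 4 h, against 1406, 2027 and 2533 in bone marrow. For all 3 every 4 h array was several-fold above every marrow array. Mrc1, the mannose receptor, had 5038, 4199 and 4394 at 4 h, against 429, 362 and 329.7 in bone marrow (log2 fold change 3.56 ± 0.21, adjusted p = 3.35e-11). Malt1, the protease that carries lectin signals to NF-kB, had 6145, 5978 and 4175 at 4 h, against 1730.3, 1903 and 2511 in bone marrow. Clec7a, which encodes dectin-1, the zymosan receptor, had 16264, 15778 and 14603 at 4 h, against 15006, 13329 and 14029 in bone marrow and was not called, so the lectin genes did not move as one.

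Of 11 Fc receptor and complement genes 5 rose and 1 fell. Fcgr1, the high-affinity receptor for IgG, had 14088, 12832 and 15597 at 4 h, against 1302, 2374 and 1257 in bone marrow (log2 fold change 3.15 ± 0.21, adjusted p = 1.87e-10). Cfb, factor B of the alternative complement pathway, had 1157, 796 and 673 at 4 h, against 133, 162 and 177 in bone marrow. Fcgr4 and Fcgr3, activating Fc receptors, changed by 1.69 and 1.17. Fcgrt, the neonatal Fc receptor, had 492, 592 and 704 at 4 h, against 1432, 1399.6 and 1052 in bone marrow and fell, a call lost without 4 h replicate 1 (log2 fold change -0.97, adjusted p = 0.00192).

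Of 12 receptors for chemoattractants 5 rose (41.7%, against 7.45% of all genes tested) and 2 fell (16.7%, close to the 14.5% of all genes tested). C3ar1, the receptor of the complement fragment C3a, had 3783, 3772 and 3209 at 4 h, against 45.1, 70.6 and 100.2 in bone marrow. C5ar1, the receptor of C5a, had 2611, 4013 and 3586 at 4 h, against 114, 99.0 and 159.6 in bone marrow. Cmklr1, the chemerin receptor, had 1140.2, 1284 and 841 at 4 h, against 53.6, 72.5 and 76.3 in bone marrow (log2 fold change 3.73 ± 0.18, adjusted p = 1.80e-12). Ccr1, a receptor for CC chemokines, had 19140, 20077 and 21108 at 4 h, against 1936, 2308 and 1428 in bone marrow (log2 fold change 3.43 ± 0.13, adjusted p = 7.03e-14). Fpr2, a formyl peptide receptor, had 12340, 12146 and 13547 at 4 h, against 1837, 2410.1 and 1712 in bone marrow. The decreases were in Cxcr4, the receptor that holds cells in the marrow, with 718, 571 and 355 at 4 h, against 3058, 3166 and 3962 in bone marrow (log2 fold change -2.65 ± 0.42, adjusted p = 2.05e-05), and Cx3cr1, the fractalkine receptor, with 578, 1273 and 757 at 4 h, against 2169, 1949 and 2101 in bone marrow. The Cx3cr1 call was lost without 4 h replicate 1 (log2 fold change -1.06, adjusted p = 0.0539), and neither its fall nor that of Fcgrt was called with the common array median.

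In the NF-kB system, which turns on inflammatory genes, 8 of 17 tested genes rose and 0 fell. Traf1, an adaptor of TNF receptors, had 1795, 2019 and 1877 at 4 h, against 111, 89.9 and 66.1 in bone marrow (log2 fold change 4.22 ± 0.37, adjusted p = 7.87e-09). Bcl3, a nuclear cofactor of NF-kB, had 6493, 7956 and 6693 at 4 h, against 703, 1038 and 455 in bone marrow (log2 fold change 3.31 ± 0.27, adjusted p = 3.43e-09). Nfkbie, an inhibitor of NF-kB, had 7590.3, 8400.3 and 9237 at 4 h, against 1164, 1717 and 1531 in bone marrow. Relb and Nfkb2, the subunits of the noncanonical pathway, changed by 2.33 and 2.11, and the kinase gene Ikbke by 1.90. Rela, the main activating subunit, had 5289.6, 6429.7 and 5100.2 at 4 h, against 3278, 3911 and 2714 in bone marrow, without overlap but with a change of 0.77, under the threshold, and was called higher with the common array median (1.13).

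Immediate early genes, which respond to stimulation and to cell handling, gave 7 increases and 2 decreases among 21. Egr2, a zinc finger factor, had 5539.6, 4395 and 4155 at 4 h, against 193, 143 and 774 in bone marrow (log2 fold change 3.98 ± 0.52, adjusted p = 2.15e-06). Ier3, an early response gene, had 12137, 12542 and 11245 at 4 h, against 617, 897 and 1759 in bone marrow. Nr4a3, an orphan nuclear receptor, and Maff, a small MAF factor, changed by 2.16 and 1.90. Fos had 22669, 21976 and 23578 at 4 h, against 29713, 23343 and 31806 in bone marrow. Egr1 had 9133, 9475 and 5478 at 4 h, against 3249.6, 2227 and 10565 in bone marrow. Nr4a1 had 5523, 5624 and 5359 at 4 h, against 7246, 5211 and 10570 in bone marrow; none was called, and bone marrow replicate 3 was the highest marrow array for all 3. Without this array Egr1 passed the threshold (log2 fold change 1.53, adjusted p = 0.0435). Fosb, another FOS family gene, had 316, 270.2 and 138 at 4 h, against 5877, 5567 and 6221 in bone marrow (log2 fold change -4.60 ± 0.31, adjusted p = 2.42e-10), with no overlap. Klf2, a factor of quiescent leukocytes, had 5212, 5627 and 3584 at 4 h, against 16606, 11372 and 21892 in bone marrow (log2 fold change -1.76 ± 0.20, adjusted p = 4.22e-07).

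Proteins that limit signalling were higher in 8 of 15 tested genes and lower in 1. Socs3, which limits STAT3 signalling, had 17526, 17026 and 18325 at 4 h, against 635, 1087 and 971 in bone marrow (log2 fold change 4.31 ± 0.27, adjusted p = 8.02e-11). Zfp36l1, an RNA decay factor, had 9753, 6699 and 6121 at 4 h, against 785, 806 and 1009 in bone marrow. Dusp5, a phosphatase of ERK, had 563, 496 and 659 at 4 h, against 32.8, 55.4 and 162 in bone marrow. Cish, a relative of SOCS3, and Spred1, an inhibitor of RAS signalling, changed by 2.59 and 2.42. Spry1, a further inhibitor of this pathway, had 143, 138 and 131 at 4 h, against 416, 402 and 410.4 in bone marrow (log2 fold change -1.48 ± 0.24, adjusted p = 3.23e-05), so Spred1 and Spry1 changed in opposite directions.

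Among 23 transcription factors of myeloid cells, 9 rose and 3 fell. Maf, a factor of macrophage differentiation, had 14468, 11432 and 9201 at 4 h, against 522, 596 and 427 in bone marrow (log2 fold change 4.45 ± 0.16, adjusted p = 2.24e-14). Hif1a, the hypoxia-inducible factor, had 23700, 22396 and 23463 at 4 h, against 4895, 5539.5 and 5503 in bone marrow (log2 fold change 2.12 ± 0.13, adjusted p = 5.25e-11). Bhlhe40, a transcriptional repressor, had 5109, 3965 and 3012 at 4 h, against 675, 954 and 1096 in bone marrow. Irf1 and Stat3, factors of interferon and cytokine signalling, changed by 1.80 and 1.56. Cebpb, a factor of inflammatory gene expression, had 10011, 10554 and 10422 at 4 h, against 4441, 5577 and 4087 in bone marrow (log2 fold change 1.15 ± 0.13, adjusted p = 2.97e-07). Spi1, which encodes PU.1, had 3132, 4874 and 4599.9 at 4 h, against 2276, 2686 and 1904 in bone marrow and was not called (log2 fold change 0.86 ± 0.27, adjusted p = 0.0114), although it passed without 4 h replicate 1 (log2 fold change 1.06, adjusted p = 0.00571) and with the common array median (1.22). Myc, a factor of cell growth, had 565, 701 and 477 at 4 h, against 343, 381 and 616 in bone marrow, with overlap. Id3, an inhibitor of such factors, rose, but not without bone marrow replicate 1 (log2 fold change 0.97, adjusted p = 0.0599). Klf4, Irf8 and Irf4 fell, the last with 222, 235 and 222 at 4 h, against 629.5, 484 and 554 in bone marrow, a call not made with the common array median.

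Beside the resident macrophage markers, the chemokine lists had the highest medians of all lists. Of 11 CXC chemokines 9 rose and 0 fell (median log2 fold change 2.79, against -0.14 for all genes tested). Cxcl1, which attracts neutrophils as Cxcl3 does, had 2217, 2595 and 1512 at 4 h, against 339, 455 and 147 in bone marrow. Cxcl2, a further ligand of the same receptor, had 30097, 29287 and 29488 at 4 h, against 5999.6, 8533 and 11806 in bone marrow. Cxcl9, Cxcl10 and Cxcl11 attract T cells and are interferon-inducible. Cxcl9 had 3148, 588 and 262 at 4 h, against 20.6, 96.1 and 82.3 in bone marrow. Cxcl10 had 8825, 4524 and 3972 at 4 h, against 600.2, 725 and 506 in bone marrow. Cxcl11 had 753, 369 and 319 at 4 h, against 22.7, 46.0 and 27.9 in bone marrow. The 4 h replicate 1 was the highest array for each of these 3 genes.

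CC chemokines rose in 7 of 11 genes and fell in 0 (median 1.62). Ccl7, a ligand of CCR2, had 1643, 1407 and 972 at 4 h, against 42.2, 8.51 and 10.7 in bone marrow (log2 fold change 5.35 ± 0.53, adjusted p = 4.17e-08). Ccl2, the main ligand of CCR2, had 12373, 10175 and 9134 at 4 h, against 2135, 1907 and 2982 in bone marrow (log2 fold change 2.18 ± 0.38, adjusted p = 6.62e-05). Ccl12, a further ligand of this receptor in mice, had 817, 272 and 246 at 4 h, against 2.72, 40.6 and 4.42 in bone marrow. Ccl24, eotaxin-2, had 652, 766 and 393 at 4 h, against 18.2, 33.5 and 19.5 in bone marrow. Ccl5, a T cell attractant, had 382, 195 and 203 at 4 h, against 37.0, 35.6 and 29.8 in bone marrow. Ccl3, which attracts leukocytes, had 7345, 6263 and 6844 at 4 h, against 6212, 7847 and 11470 in bone marrow, with overlap, and was not called.

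The interleukin-1 family and inflammasome list gave 7 increases and 0 decreases among 14. Il1b had 18669, 19500 and 21566 at 4 h, against 554, 481 and 1333 in bone marrow (log2 fold change 4.78 ± 0.42, adjusted p = 8.07e-09). Il1a had 1055, 866 and 413 at 4 h, against 4.37, 5.39 and 19.3 in bone marrow (log2 fold change 4.95 ± 0.41, adjusted p = 4.30e-09). Il1rap, the accessory chain of their receptor, had 2774, 2618 and 2696 at 4 h, against 423, 355 and 494 in bone marrow. Il18, a relative of IL-1, had 2017, 2032 and 2429 at 4 h, against 494, 725 and 465 in bone marrow. Casp4, the caspase that senses cytosolic lipopolysaccharide, had 8363, 8596 and 9235 at 4 h, against 1242, 1770.4 and 1771 in bone marrow. Both the ligands and their antagonist Il1rn were thus higher at 4 h. Nlrp3, the sensor of the inflammasome, had 1428, 1472 and 1131 at 4 h, against 1140.2, 1179 and 1046 in bone marrow and was not called.

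Of 17 other cytokines and growth factors 8 rose and 1 fell. Il6 had 819, 699.8 and 600.1 at 4 h, against 65.3, 94.4 and 148 in bone marrow (log2 fold change 2.67 ± 0.34, adjusted p = 1.26e-06). Il10, an anti-inflammatory cytokine, had 102, 127 and 82.8 at 4 h, against 16, 3.41 and 12.2 in bone marrow (log2 fold change 2.24 ± 0.38, adjusted p = 4.96e-05). Il23a, a subunit of IL-23, had 104, 114 and 89.4 at 4 h, against 9.90, 14.3 and 5.34 in bone marrow (log2 fold change 2.25 ± 0.50, adjusted p = 0.000778). Vegfa, a growth factor of blood vessels, had 606, 565 and 417 at 4 h, against 173, 169 and 306 in bone marrow (log2 fold change 1.27 ± 0.32, adjusted p = 0.00252). Hbegf, an EGF receptor ligand, had 217, 248 and 273 at 4 h, against 79.4, 72.5 and 105 in bone marrow. Tnf had 2749.9, 2232 and 1475 at 4 h, against 677, 992 and 918 in bone marrow (log2 fold change 1.28 ± 0.50, adjusted p = 0.0409), and its call was lost when any of 4 h replicates 1 and 2 or bone marrow replicates 1, 2 and 3 was left out. Without 4 h replicate 1 it stood at log2 fold change 1.08, adjusted p = 0.137, without 4 h replicate 2 at log2 fold change 1.23, adjusted p = 0.0924, and without marrow replicates 1, 2 and 3 at adjusted p 0.127, 0.0553 and 0.0669. Inhba, the activin A subunit, had 662, 784 and 847 at 4 h, against 139, 101 and 552 in bone marrow and rose, but not without marrow replicate 2 (log2 fold change 1.39, adjusted p = 0.0528). Vegfb, a relative of Vegfa, had 8.35, 35.1 and 8.74 at 4 h, against 46.3, 86.0 and 90.3 in bone marrow (log2 fold change -1.52 ± 0.40, adjusted p = 0.0036), in the opposite direction. Csf2, Csf3, Ifnb1, Il12a and Il12b, the genes of GM-CSF, G-CSF, interferon beta and IL-12, were below the signal filter, as was Nos2, the inducible nitric oxide synthase.

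Receptors for cytokines rose in 8 of 23 genes and fell in 0. Il4ra, the shared chain of the IL-4 and IL-13 receptors, had 5055, 6170.1 and 5383 at 4 h, against 441, 537 and 386 in bone marrow (log2 fold change 3.57 ± 0.15, adjusted p = 2.94e-13). Il13ra1, its partner, had 3137, 2652 and 2836 at 4 h, against 929.6, 1303 and 595 in bone marrow. Il7r, a receptor better known from lymphocytes, had 857, 925 and 1052 at 4 h, against 144, 74.6 and 108 in bone marrow (log2 fold change 2.99 ± 0.42, adjusted p = 5.59e-06). Il21r had 713, 436 and 248 at 4 h, against 83.4, 74.5 and 80.6 in bone marrow. Csf2rb and Csf2rb2, the beta chains of receptors for GM-CSF, IL-3 and IL-5, changed by 1.63 and 2.30, and these sequences are alike enough that their probe sets may share signal. Il6ra, the IL-6 receptor, had 3275, 1963 and 2631 at 4 h, against 3994, 4082 and 3344 in bone marrow, lower without overlap but under the threshold.

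Integrins and adhesion molecules gave 8 increases and 3 decreases among 18. Itgax, which encodes CD11c, had 1014, 1013 and 954 at 4 h, against 75.4, 106 and 128 in bone marrow (log2 fold change 3.12 ± 0.36, adjusted p = 3.71e-07). Icam1, a ligand of leukocyte integrins, had 7503, 7017 and 6456 at 4 h, against 1037, 1257 and 992 in bone marrow (log2 fold change 2.66 ± 0.17, adjusted p = 8.95e-11). Itga5, the alpha chain of the fibronectin receptor, had 684, 677 and 688 at 4 h, against 138, 147 and 205 in bone marrow. F11r, a junctional adhesion molecule, had 315, 222 and 338 at 4 h, against 48.4, 96.4 and 44.4 in bone marrow. Itgav and Itgb5, which pair in a vitronectin receptor, changed by 1.53 and 1.41, whereas Itgb3, the other partner of Itgav, fell with 42.0, 88.9 and 64.9 at 4 h, against 648, 477 and 642 in bone marrow (log2 fold change -2.94 ± 0.36, adjusted p = 1.04e-06). Itga4, a chain of the VCAM-1 receptor, changed by -1.07, not called without 4 h replicate 3 (log2 fold change -0.98, adjusted p = 9.80e-07) or with the common array median. Itga6, the laminin receptor chain, overlapped between groups (217, 528 and 115 at 4 h, against 682, 524 and 702 in bone marrow), and its call was lost without 4 h replicate 3 (log2 fold change -0.86, adjusted p = 0.00377) and with the common median.

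Genes of antigen presentation and costimulation were among those higher. Of 10 MHC class II genes 4 rose and 0 fell. H2-Ab1 had 5491, 5019 and 4489.8 at 4 h, against 1014, 909 and 807 in bone marrow (log2 fold change 2.44 ± 0.33, adjusted p = 2.79e-06). Cd74, the invariant chain, had 10318, 10692 and 9762 at 4 h, against 1782, 2828 and 1995 in bone marrow, and H2-Eb1 and H2-Aa changed by 2.20 and 1.75. The means of these 4 genes were higher again at 18 h, for H2-Ab1 9874. Of 11 costimulatory and inhibitory ligands 7 rose and 1 fell. Cd80, a ligand of CD28, had 760.2, 863 and 954 at 4 h, against 187, 145 and 162 in bone marrow. Cd86, the other ligand of CD28, had 4174, 3543 and 3643 at 4 h, against 748, 875 and 1059.6 in bone marrow. Havcr2, which encodes TIM-3, had 508, 549 and 879 at 4 h, against 37.3, 87.2 and 66.4 in bone marrow (log2 fold change 3.08 ± 0.42, adjusted p = 3.19e-06). Cd274, which encodes PD-L1, had 2917, 1184 and 978 at 4 h, against 169, 178 and 223 in bone marrow (log2 fold change 2.90 ± 0.37, adjusted p = 1.40e-06). Cd48, a ligand of 2B4, had 1896, 2578 and 2067 at 4 h, against 7233, 8817 and 5315 in bone marrow (log2 fold change -1.68 ± 0.21, adjusted p = 1.08e-06).

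Of 23 interferon-stimulated genes 7 rose and 2 fell (11 and 1 with the common array median). These were 30.4% and 8.70% of them, against 7.45% and 14.5% of all genes tested. Gbp2, a guanylate binding protein, had 9960.2, 3402 and 2352 at 4 h, against 993, 1753 and 899.7 in bone marrow (log2 fold change 1.88 ± 0.42, adjusted p = 0.000934). Oas2, a sensor of double-stranded RNA, had 6224, 5677 and 6038 at 4 h, against 1362, 2486 and 1541 in bone marrow (log2 fold change 1.78 ± 0.16, adjusted p = 1.25e-08). Zbp1 and Isg20 changed by 1.79 and 1.69. Cmpk2, a mitochondrial nucleotide kinase, had 871, 641 and 724 at 4 h, against 3719.5, 4083 and 2882 in bone marrow (log2 fold change -2.23 ± 0.15, adjusted p = 1.67e-10), and Ifit3 had 469, 534 and 575 at 4 h, against 1013, 1711 and 1138 in bone marrow, both lower in every 4 h array, the Ifit3 fall not called with the common median.

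Lipid mediator genes changed in both directions, 4 of 13 higher and 3 lower. Ptgs2, the inducible cyclooxygenase COX-2, had 7631, 5642 and 7951 at 4 h, against 429, 769.9 and 846 in bone marrow (log2 fold change 3.39 ± 0.46, adjusted p = 3.27e-06). Pla2g4a, the phospholipase that frees arachidonic acid, had 3213, 2612 and 2794 at 4 h, against 1386, 1127 and 1309 in bone marrow. Ptger2, a receptor for prostaglandin E2, had 2331, 2247 and 2297 at 4 h, against 702, 625 and 492 in bone marrow (log2 fold change 1.91 ± 0.18, adjusted p = 2.62e-08). The decreases were in Alox5, the 5-lipoxygenase that starts leukotriene synthesis, with 98.8, 145 and 152 at 4 h, against 424, 328 and 890.1 in bone marrow (log2 fold change -1.83 ± 0.24, adjusted p = 2.24e-06), and Hpgd, which breaks prostaglandins down, with 543, 562 and 657 at 4 h, against 2895, 2128 and 1438 in bone marrow (log2 fold change -1.79 ± 0.23, adjusted p = 1.61e-06). Lta4h, the next enzyme to leukotriene B4, had 3948, 4226 and 4377 at 4 h, against 8702, 6527 and 15338 in bone marrow and was not called without bone marrow replicate 3 (log2 fold change -0.85, adjusted p = 4.05e-05) or with the common median.

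Arginine and polyamine genes rose in 3 of 13, none of them in polyamine synthesis. Besides Arg1, Arg2, the mitochondrial arginase, had 1859, 2216 and 2675 at 4 h, against 100.5, 75.1 and 257 in bone marrow (log2 fold change 3.99 ± 0.38, adjusted p = 2.29e-08). Slc7a2, the arginine transporter CAT2, had 1111, 986 and 738 at 4 h, against 102, 73.6 and 83.5 in bone marrow (log2 fold change 3.23 ± 0.21, adjusted p = 1.29e-10). Of 20 itaconate, NRF2 and antioxidant genes 7 rose and 0 fell. Slc7a11, the cystine importer, had 691, 792 and 1142 at 4 h, against 19.4, 30.4 and 56.9 in bone marrow (log2 fold change 4.17 ± 0.41, adjusted p = 4.18e-08). Srxn1, sulfiredoxin, had 868, 1123 and 1059 at 4 h, against 165, 49.4 and 95.7 in bone marrow. Sod2, the mitochondrial superoxide dismutase, had 17359, 17901 and 17580 at 4 h, against 3262, 3243 and 4033 in bone marrow. Txnrd1, thioredoxin reductase, had 8423, 8697 and 7449 at 4 h, against 1698, 1769 and 1718 in bone marrow. Hmox1, heme oxygenase 1, had 1309, 1283 and 1887 at 4 h, against 288, 581 and 394 in bone marrow (log2 fold change 1.82 ± 0.28, adjusted p = 1.51e-05).

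Genes of coagulation and fibrinolysis rose in 8 of 14 and fell in 1. Thbs1, thrombospondin 1, had 12730, 14299 and 13242 at 4 h, against 424, 596 and 849 in bone marrow (log2 fold change 4.45 ± 0.33, adjusted p = 7.64e-10). Procr, the endothelial protein C receptor, had 249, 315 and 228 at 4 h, against 25.1, 7.88 and 24.8 in bone marrow (log2 fold change 3.06 ± 0.32, adjusted p = 9.15e-08). F10, coagulation factor X, had 15708, 15896 and 16097 at 4 h, against 5037, 5192 and 4881 in bone marrow (log2 fold change 1.66 ± 0.08, adjusted p = 1.06e-12). F3, tissue factor, had 99.6, 81.1 and 62.0 at 4 h, against 2.71, 19.7 and 32.2 in bone marrow (log2 fold change 1.62 ± 0.38, adjusted p = 0.00138), at low signal. Tfpi, the inhibitor of tissue factor, had 127, 164 and 123 at 4 h, against 340.5, 345 and 543 in bone marrow (log2 fold change -1.45 ± 0.16, adjusted p = 2.66e-07), lower in each 4 h array.

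Metalloproteinases and their inhibitors rose in 7 of 12 genes and fell in 1 (median 1.60). Adam8, a leukocyte sheddase, had 13353, 13563 and 15928 at 4 h, against 329, 265 and 350.4 in bone marrow (log2 fold change 5.44 ± 0.17, adjusted p = 2.08e-15). Mmp14, a membrane-bound metalloproteinase, had 2222, 1969 and 1818 at 4 h, against 91.0, 49.0 and 68.2 in bone marrow (log2 fold change 4.60 ± 0.19, adjusted p = 1.14e-13). Adam9 had 12185, 10694 and 10950 at 4 h, against 1869, 2302 and 1529 in bone marrow. Mmp13, a collagenase, had 98.3, 83.8 and 47.4 at 4 h, against 0.886, 3.15 and 20.7 in bone marrow, at low signal. Mmp9, a gelatinase, changed by -1.04; its call was lost without 4 h replicate 1 (log2 fold change -0.88, adjusted p = 0.0255) and without bone marrow replicate 3 (log2 fold change -0.80, adjusted p = 0.032), and with the common array median.

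Lipid handling genes rose in 6 of 21 and fell in 1 (12 called higher with the common median). Abca1, the cholesterol exporter, had 4352, 3990.2 and 3885 at 4 h, against 221, 196 and 181 in bone marrow (log2 fold change 4.26 ± 0.20, adjusted p = 8.48e-13). Msr1, the scavenger receptor A, had 16632, 15493 and 15168 at 4 h, against 1779.9, 2198 and 1127 in bone marrow (log2 fold change 3.25 ± 0.16, adjusted p = 1.80e-12). Cd36, a fatty acid and lipoprotein receptor, had 589, 515 and 291 at 4 h, against 62.6, 107 and 45.9 in bone marrow. Fabp4, Pltp and Apoe, which are also abundant in resident macrophages, changed by 2.09, 1.98 and 1.64; all 3 were highest in 4 h replicate 2, the array with the most resident macrophage signal. Mylip, which marks the LDL receptor for breakdown, had 406, 488 and 390.2 at 4 h, against 1745, 1509 and 2185 in bone marrow (log2 fold change -2.03 ± 0.16, adjusted p = 1.48e-09).

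Of 18 genes of cholesterol synthesis 9 rose and 1 fell. Cyp51, a sterol demethylase, had 3152, 2664 and 1899 at 4 h, against 436, 346 and 409 in bone marrow (log2 fold change 2.63 ± 0.20, adjusted p = 1.21e-09). Sqle, squalene epoxidase, had 3621, 3287 and 1921 at 4 h, against 807, 530.4 and 387 in bone marrow (log2 fold change 2.34 ± 0.30, adjusted p = 1.52e-06). Msmo1 had 3296, 3455 and 2606 at 4 h, against 665, 697 and 470.4 in bone marrow. Idi1, Hmgcs1 and Insig1, the last a sensor of sterols, changed by 1.87, 1.56 and 1.40. In 5 of these 6 genes 4 h replicate 1 was the highest 4 h array. Mvk, mevalonate kinase, had 32.8, 31.0 and 13.8 at 4 h, against 134, 119 and 36.3 in bone marrow and was not called without 4 h replicate 3 (log2 fold change -1.11, adjusted p = 0.0912), bone marrow replicate 1 (log2 fold change -1.06, adjusted p = 0.107) or bone marrow replicate 2 (log2 fold change -1.14, adjusted p = 0.0854), nor with the common median.

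Of 20 glucose uptake and glycolysis genes 7 rose and 2 fell, 35.0% and 10% of them, against 7.45% and 14.5% of all genes tested. Slc2a1, the glucose transporter GLUT1, had 8227, 7086 and 8925 at 4 h, against 834, 1183 and 1045 in bone marrow (log2 fold change 2.97 ± 0.18, adjusted p = 3.04e-11). Slc16a3, the lactate transporter MCT4, had 638, 1108 and 487 at 4 h, against 169, 208 and 119 in bone marrow. Slc16a1, the lactate transporter MCT1, had 4122, 4231 and 4375 at 4 h, against 894, 1016 and 1617 in bone marrow. Pfkfb3, which makes the activator of phosphofructokinase, had 1641, 1659 and 1692 at 4 h, against 368, 371 and 626 in bone marrow, and Ldha, lactate dehydrogenase, changed by 1.10. Slc2a3, the transporter GLUT3, had 331, 296 and 319 at 4 h, against 790, 589 and 2928 in bone marrow (log2 fold change -1.77 ± 0.48, adjusted p = 0.00445). Hk2, a hexokinase, had 3419, 2940.4 and 2472 at 4 h, against 4264, 6121 and 4372 in bone marrow and was not called. Of 15 other hypoxia response genes 4 rose and 0 fell, led by Ankrd37 with 1083, 1082 and 1119 at 4 h, against 88.3, 106 and 129 in bone marrow (log2 fold change 3.19 ± 0.23, adjusted p = 4.14e-10) and P4ha1, a collagen prolyl hydroxylase, with 1693, 1488 and 1573 at 4 h, against 347, 395 and 391 in bone marrow (log2 fold change 2.03 ± 0.12, adjusted p = 3.07e-11).

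Mitochondrial genes were called no more often than genes at large. Of 30 nuclear-encoded respiratory chain subunits 0 rose and 0 fell, with log2 fold changes of -0.65 to 0.27; at an unadjusted p under 0.05 limma gave 0 higher and 8 lower. Of 15 genes of the tricarboxylic acid cycle 0 rose and 2 fell (median -0.56). The 2 are 13.3% of them, close to the 14.5% of all genes tested that fell. At an unadjusted p under 0.05 limma gave 0 higher and 9 lower in this list. Idh2, the mitochondrial isocitrate dehydrogenase, had 694, 900.4 and 833 at 4 h, against 2301, 2208 and 2756 in bone marrow (log2 fold change -1.57 ± 0.14, adjusted p = 7.99e-09). Fh1, fumarase, had 1703, 1799.7 and 2008 at 4 h, against 4069.9, 4257 and 3459 in bone marrow (log2 fold change -1.09 ± 0.14, adjusted p = 1.44e-06), a fall not called with the common median.

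Uptake and scavenger genes rose in 7 of 19 and fell in 1. Besides Tgm2 and Dab2, Mertk, a receptor for apoptotic cells, had 459, 476 and 368 at 4 h, against 72.6, 48.2 and 77.9 in bone marrow (log2 fold change 2.48 ± 0.17, adjusted p = 2.58e-10). Stab1, a scavenger receptor, had 1039.7, 863 and 452 at 4 h, against 10.5, 43.5 and 88.0 in bone marrow (log2 fold change 3.82 ± 0.35, adjusted p = 1.40e-08). Marco, a scavenger receptor abundant in resident macrophages, had 195, 735 and 11.1 at 4 h, against 5.79, 3.85 and 3.04 in bone marrow. Cd5l, a secreted protein abundant in the same cells, had 255, 1099.9 and 203 at 4 h, against 49.3, 63.3 and 44.3 in bone marrow. In both, 4 h replicate 2 was far above the other 4 h arrays. Of 26 lysosomal genes 3 rose and 1 fell (7 called higher with the common median). These were 11.5% and 3.85% of them, against 7.45% and 14.5% of all genes tested. Ctsl, cathepsin L, had 18414, 17788 and 18750 at 4 h, against 3130.1, 3239 and 4189 in bone marrow (log2 fold change 2.39 ± 0.11, adjusted p = 5.21e-13). Ctsd, cathepsin D, had 9810.1, 10064 and 8606 at 4 h, against 3639, 4598 and 3811 in bone marrow.

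In the BCL-2 family 1 gene of 12 rose and 1 fell, 8.33% each, against 7.45% and 14.5% of all genes tested. Both genes encode proteins that promote death. Bcl2l11, which encodes BIM, had 11262, 12220 and 14444 at 4 h, against 1590.2, 1461 and 1895 in bone marrow (log2 fold change 2.93 ± 0.19, adjusted p = 1.39e-10), and Bmf had 130.3, 161 and 135 at 4 h, against 909, 791 and 470.2 in bone marrow (log2 fold change -2.18 ± 0.24, adjusted p = 2.46e-07). Purine receptors and enzymes gave 5 increases and 4 decreases among 14. P2ry2, a nucleotide receptor, had 141, 232 and 122 at 4 h, against 15, 50.6 and 13.8 in bone marrow. P2ry6, a receptor for uridine nucleotides, had 4676, 5031 and 4535 at 4 h, against 1561, 1746 and 1007 in bone marrow. In the other direction Ada, adenosine deaminase, had 84.8, 56.5 and 55.5 at 4 h, against 163, 133 and 705 in bone marrow. Slc29a1, a nucleoside transporter, had 129, 181 and 179 at 4 h, against 454, 498 and 474 in bone marrow. Nt5e and Entpd1, the surface enzymes CD73 and CD39 that turn ATP into adenosine, changed by 1.61 and 1.46.

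Iron genes rose in 2 and fell in 3 of 16, 12.5% and 18.75% of them, against 7.45% and 14.5% of all genes tested. Slc40a1, the iron exporter ferroportin, had 3.69, 21.3 and 2.41 at 4 h, against 263, 163 and 1451 in bone marrow (log2 fold change -4.20 ± 0.55, adjusted p = 2.03e-06), with every 4 h array far below every marrow array. Slc11a1, the metal transporter NRAMP1 of phagosomes, had 10636, 11538 and 11081 at 4 h, against 1563, 2350.1 and 1439 in bone marrow (log2 fold change 2.66 ± 0.14, adjusted p = 6.35e-12). Alas1, which starts heme synthesis, had 9965, 11154 and 11266 at 4 h, against 2382, 2500.3 and 5564 in bone marrow (log2 fold change 1.74 ± 0.21, adjusted p = 7.26e-07).

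Of 19 Ms4a and tetraspanin genes 6 rose and 2 fell; Ms4a6d had 22744, 19623 and 25312 at 4 h, against 2408, 3475 and 1896 in bone marrow (log2 fold change 3.15 ± 0.18, adjusted p = 1.52e-11). Tspan13 had 5193, 4883 and 7375 at 4 h, against 1001, 1188 and 822 in bone marrow (log2 fold change 2.51 ± 0.17, adjusted p = 1.55e-10). Among 12 annexin, galectin and S100 genes 2 rose and 0 fell, led by Lgals8, galectin-8, with 5424, 5441 and 5908 at 4 h, against 1078, 1128 and 939 in bone marrow (log2 fold change 2.40 ± 0.11, adjusted p = 8.94e-13). Of 25 cytoskeletal genes 2 rose and 1 fell (4 called higher with the common median). These were 8% and 4% of them, against 7.45% and 14.5% of all genes tested. Rhoc, a small GTPase that acts on the cytoskeleton, had 603, 441 and 227 at 4 h, against 82.0, 8.85 and 75.9 in bone marrow (log2 fold change 2.78 ± 0.43, adjusted p = 1.78e-05). Evl had 5506, 5725 and 5539 at 4 h, against 1402, 1933 and 1042 in bone marrow. Vcl, vinculin, had 3029.9, 2898 and 2790.4 at 4 h, against 8187, 9029 and 10102 in bone marrow (log2 fold change -1.64 ± 0.15, adjusted p = 1.82e-08).

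Of the lists of protein synthesis and quality control, those of proteasome subunits, ribosomal proteins and heat shock genes held few calls. Of 27 proteasome subunits 0 rose and 0 fell, with log2 fold changes of -0.33 to 0.91 (8 higher and 2 lower at an unadjusted p under 0.05). Of 17 ribosomal proteins 0 rose and 0 fell (0 higher and 3 lower at that unadjusted p). Heat shock genes, which also respond to handling, rose in 1 of 16 and fell in 0. Of 24 ribosome biogenesis genes 1 rose and 3 fell, 4.17% and 12.5% of them, against 7.45% and 14.5% of all genes tested. Among those that fell was Dkc1, a subunit of the pseudouridine synthase, with 769, 896 and 626 at 4 h, against 2060.4, 1917 and 2292 in bone marrow (log2 fold change -1.45 ± 0.18, adjusted p = 8.90e-07). ATF4 and unfolded protein response genes rose in 3 and fell in 3 of 27, a share called close to the 21.9% of all genes tested (8 called higher with the common median). The 3 that fell act in serine synthesis and its conversion to glycine. Phgdh had 476, 554 and 737 at 4 h, against 1798, 1419 and 2239.9 in bone marrow. Psat1 had 799.7, 758 and 628 at 4 h, against 3119, 3278 and 3392 in bone marrow. Shmt2 had 216, 212 and 226 at 4 h, against 1400.2, 1144 and 1346 in bone marrow (log2 fold change -2.49 ± 0.16, adjusted p = 1.49e-10). Nupr1, a stress-induced nuclear protein, had 3409, 3430 and 3503 at 4 h, against 941, 1358 and 996 in bone marrow (log2 fold change 1.66 ± 0.21, adjusted p = 1.67e-06).

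**Figure D4:**
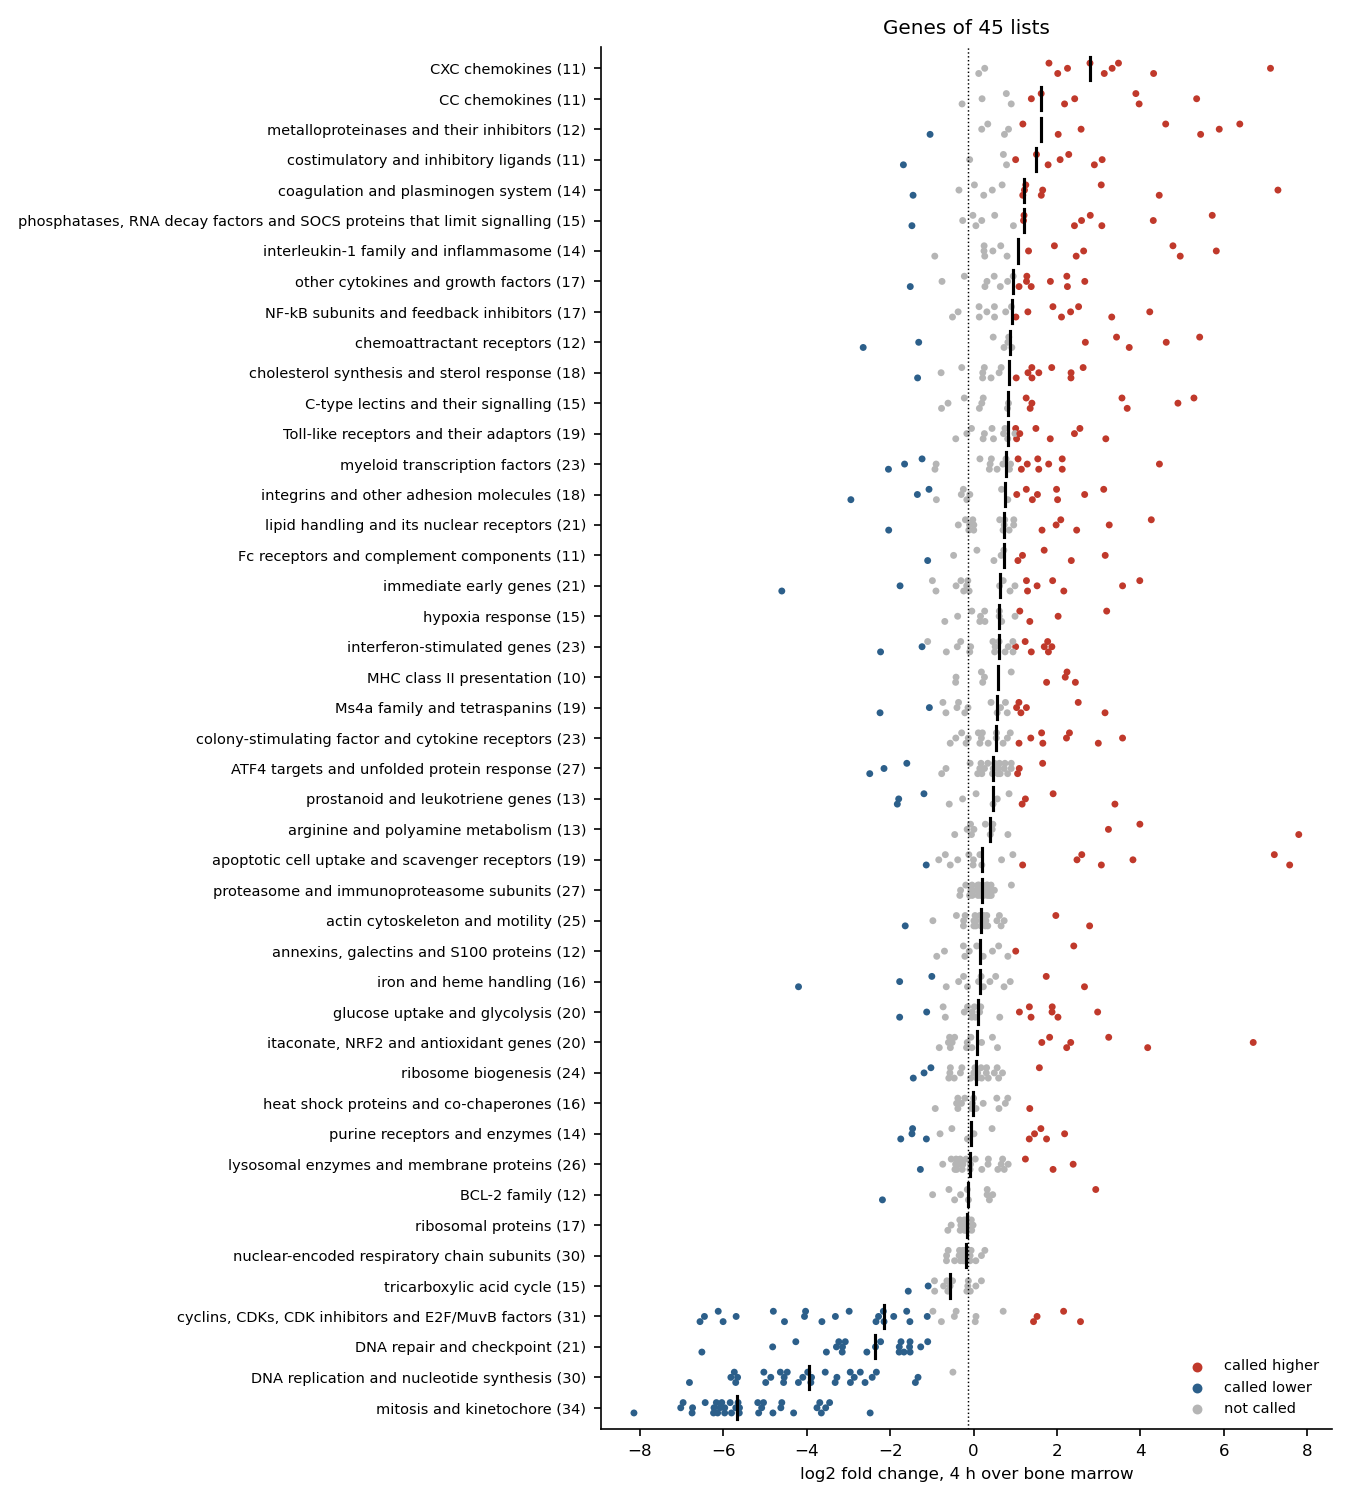
Log2 fold change, 4 h over bone marrow, of each tested gene in 45 lists, with the number of genes in brackets, a black bar at the list median and a dotted line at the median of all genes tested. Red genes rose, blue genes fell and grey genes were not called. Chemokine and metalloproteinase lists lie at the top and the 4 lists of the cell cycle at the bottom.

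The largest falls were in genes of dividing cells. All 34 tested mitosis and kinetochore genes fell, with log2 fold changes of -8.14 to -2.48 and a median of -5.67. So did 29 of 30 replication genes (median -3.94) and all 21 DNA repair and checkpoint genes (median -2.35; 19 called lower with the common median). Bub1, the kinase that works with Bub1b, had 2.62, 13 and 36.4 at 4 h, against 3124, 2881 and 3365 in bone marrow (log2 fold change -6.74 ± 0.54, adjusted p = 2.35e-09). Nuf2, a kinetochore subunit, had 1.81, 7.40 and 7.34 at 4 h, against 2812, 2263 and 2837 in bone marrow. Birc5, survivin, had 7.88, 53.6 and 81.3 at 4 h, against 4137, 4249 and 3615 in bone marrow. Cenpa, the histone of the centromere, had the smallest fall of the list, with 978, 954 and 1159 at 4 h, against 6233, 5715 and 5455 in bone marrow (log2 fold change -2.48 ± 0.31, adjusted p = 1.09e-06), and was not called with the mean of its probe sets (log2 fold change -0.78, adjusted p = 0.00999).

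Replication genes showed a wide range. Rrm2, the regulated subunit of ribonucleotide reductase, had 52.5, 81.9 and 76.4 at 4 h, against 8718, 7499 and 12858 in bone marrow (log2 fold change -6.81 ± 0.54, adjusted p = 1.75e-09), whereas Rrm1, its partner, had 287, 329 and 264 at 4 h, against 5507, 4906 and 6599.6 in bone marrow (log2 fold change -4.20 ± 0.38, adjusted p = 1.35e-08). Tk1, thymidine kinase, had 28.9, 19.2 and 23.1 at 4 h, against 2468, 1642 and 2477 in bone marrow. Pole, a DNA polymerase, had 3.44, 11.8 and 3.84 at 4 h, against 1312, 884 and 1163 in bone marrow. Among the subunits of the replicative helicase Mcm7 and Mcm5 fell by 5.70 and 4.98 and Mcm4 by 1.40. Pcna, the sliding clamp that also serves repair, had 6728, 7284 and 7784 at 4 h, against 17622, 18098 and 19145 in bone marrow (log2 fold change -1.33 ± 0.21, adjusted p = 2.79e-05) and was not called lower with the common array median (-0.97). Fen1, the flap endonuclease, had 6915, 7965 and 2956 at 4 h, against 7278, 7603 and 8264 in bone marrow, and was the only gene of this list not called (log2 fold change -0.50 ± 0.43, adjusted p = 0.38). A second probe set of Fen1 averaged 331 at 4 h and 1517 in bone marrow, and with the mean of its probe sets Fen1 was called lower (log2 fold change -1.32, adjusted p = 0.000832). In the repair list Rad51ap1, of homologous recombination, had 5.45, 3.60 and 27.0 at 4 h, against 2432, 1912 and 2564 in bone marrow. Brca1, of the same pathway, had 31.3, 49.9 and 25.5 at 4 h, against 1379.9, 1195 and 1597 in bone marrow.

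Regulators of the cycle changed in both directions. Of 31 tested 20 fell and 4 rose. Mki67, the proliferation marker, had 206, 256 and 199.8 at 4 h, against 20868, 17555 and 23533 in bone marrow (log2 fold change -6.45 ± 0.54, adjusted p = 4.27e-09). Cdk1, the kinase of mitosis, had 55.2, 129.6 and 33.4 at 4 h, against 6034, 4477 and 6070.1 in bone marrow. Ccnb2, a cyclin that binds it, had 71.5, 100.4 and 88.3 at 4 h, against 7096, 6027 and 6328 in bone marrow. Ccna2 and Ccne2, cyclins of S phase and of its start, changed by -5.69 and -4.80. The 4 genes that rose include the G1 cyclins Ccnd1, with 347, 338 and 349 at 4 h, against 117, 100.3 and 114 in bone marrow, and Ccnd2. Ccnd2 had 1124, 1104 and 925 at 4 h, against 204, 118 and 446 in bone marrow. Cdkn1a, the inhibitor p21, had 12890, 11891 and 12795 at 4 h, against 4838, 5188 and 3912 in bone marrow (log2 fold change 1.44 ± 0.16, adjusted p = 3.17e-07). Mxd1, a repressor that opposes MYC, had 4379.9, 2798 and 4353 at 4 h, against 581, 666 and 629.8 in bone marrow (log2 fold change 2.56 ± 0.22, adjusted p = 5.34e-09). Cdkn2c, the inhibitor p18, had 209.7, 271 and 279 at 4 h, against 4768, 4205 and 4043 in bone marrow (log2 fold change -4.03 ± 0.24, adjusted p = 3.60e-11), in the direction opposite to Cdkn1a.

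Large falls were also found in genes of the granule and neutrophil lists and of the progenitor list. Elane, which encodes neutrophil elastase, had 55.0, 163 and 153 at 4 h, against 3719.7, 3371 and 8404 in bone marrow. Prtn3, which encodes proteinase 3, had 832, 970.1 and 760.2 at 4 h, against 12806, 10133 and 21054 in bone marrow. Ltf, lactoferrin, had 103, 65.2 and 70.6 at 4 h, against 5524, 2819 and 21260 in bone marrow (log2 fold change -6.22 ± 0.64, adjusted p = 7.73e-08). Ngp had 187, 166 and 280.1 at 4 h, against 26006, 16552 and 38578 in bone marrow. S100a8, a subunit of calprotectin, had 2737, 2444 and 3384 at 4 h, against 29406, 21870 and 43246 in bone marrow (log2 fold change -3.41 ± 0.41, adjusted p = 6.26e-07). Lcn2, an iron-binding lipocalin of granules, had 2309.8, 2184 and 1779 at 4 h, against 7298, 4648 and 23110 in bone marrow (log2 fold change -2.14 ± 0.46, adjusted p = 0.000571), the smallest fall among the called genes of its list. Myb, the transcription factor of marrow progenitors, had 8.34, 18.7 and 35.4 at 4 h, against 2554, 1589 and 5917 in bone marrow (log2 fold change -6.41 ± 0.57, adjusted p = 1.13e-08). Cd34 had 65.0, 68.5 and 52.0 at 4 h, against 485, 324 and 640.4 in bone marrow (log2 fold change -2.65 ± 0.51, adjusted p = 0.000197). Leaving out bone marrow replicate 3, the highest array for each gene of this paragraph, the log2 fold changes were -4.80 for Elane, -5.41 for Ltf and -5.90 for Myb.

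Set beside the other 5 groups, the 4 h level was the highest of all 7 group means in 612 of the 905 genes that rose (67.6%), against 19.0% of all genes tested, and the lowest in 1381 of the 1759 that fell (78.5%), against 36.3%. These counts share the 4 h arrays with the calls and carry no test. At 18 h 198 of the 905 genes had a higher mean than at 4 h. Il1rn, Cxcl3 and Il1b were at their highest at 4 h, with means of 12119, 4343 and 19912, and had 477, 509 and 4279 at 18 h. Arg1 had a mean of 4556 at 4 h and 29763 at 18 h. Tgm2 had 21576 at 4 h, 9284 at 18 h and 1363 in resident macrophages, whereas Serpinb2 had 6199.8 at 4 h and 24915 in resident macrophages. Bub1b had 5.20 at 4 h, 94.0 at 18 h and 1495 at 72 h, and Cdkn1a had 12525, 16173 and 6603 at the same times.

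**Figure D5:**
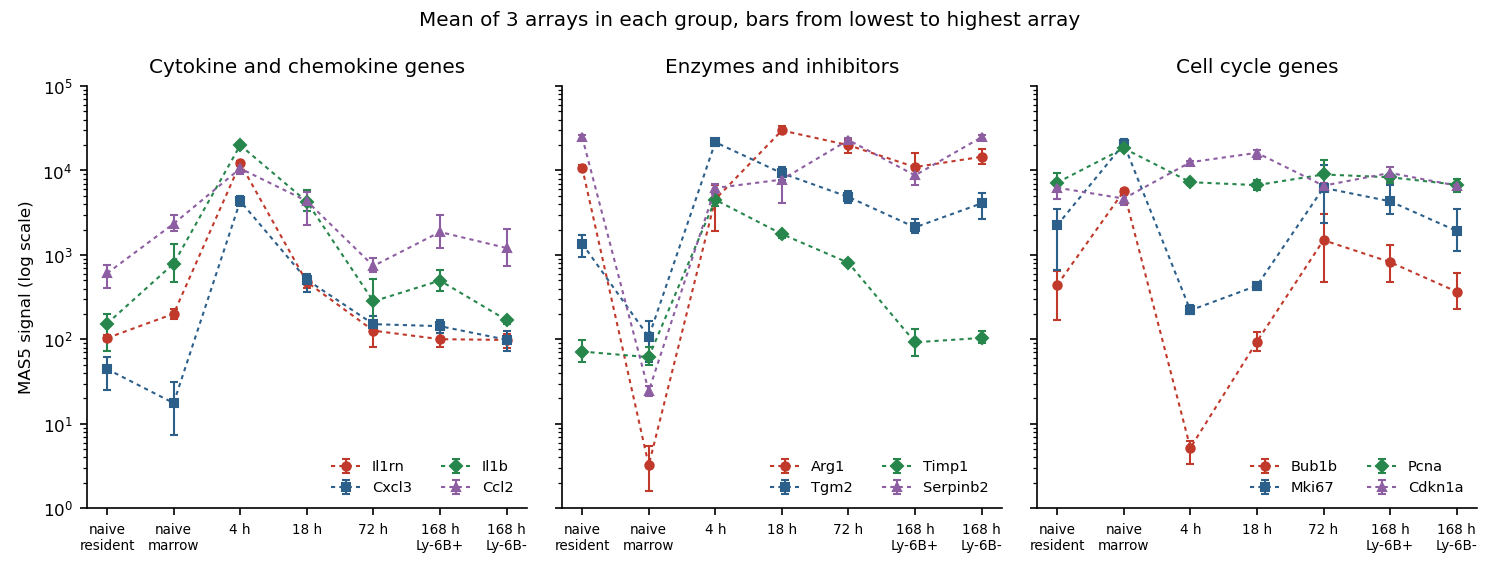
Mean MAS5 signal of 3 arrays per group on a log axis, with bars from the lowest to the highest array, for 12 genes in naive resident macrophages, naive bone marrow monocytes and the zymosan groups in order of time. Cytokine and chemokine genes peak at 4 h, Arg1 peaks at 18 h, and Bub1b and Mki67 are lowest at 4 h.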

How the data were processed

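RNA of sorted cells was measured on 21 Affymetrix arrays with 45101 probe sets, after a labelling protocol that amplifies 100 ng of RNA over 2 cycles, per the labels' protocols. The authors deposited 1 linear intensity per probe set and array, the MAS5 signal, computed in Affymetrix Expression Console 1.2 per the submitters' processing notes. Detection calls were not used here. In MAS5, low signals are noisy and a global scaling sets the array level. Of the probe sets 34958 were annotated to 1 symbol, 932 to several and 9211 to none, and probe sets with several symbols or none were left out. Where a gene had several probe sets, that with the highest average log2 signal in the 21 arrays was used. Probe sets ending in _s_at or _x_at may match several transcripts. Signals + 15 were log2-transformed, and genes above the median of the whole table (80.6) in at least 3 arrays were fitted with limma 3.58.1 in R 4.3.3 (lmFit, eBayes with trend), 7 group means over 21 arrays with 14 residual degrees of freedom, and p-values were adjusted by Benjamini-Hochberg over all genes tested. The procedure was tested on simulated data. With 3 arrays a group, the number of arrays limits the precision.

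Named genes are the 15 largest changes in each direction, the markers Arg1, Tgm2, Il1rn, Cxcl3 and Bub1b, cell type markers, up to 6 called members of each list in its main direction and up to 3 in the other, and a set of well-known genes whether called or not; uncalled members were also named to show the exceptions of a list. The lists are 58 in number and hold 1063 genes. The members and lists were chosen with earlier results of these data known. Alternatives changed the pseudocount, scaling, filter, probe set rule, variance model, arrays and minimum fold.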

Additional observations from a re-analysis of the deposited data

How the results depend on the processing

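The counts of genes that rose and fell, 905 and 1759, moved by more than 1.5 times, under 2 of the 19 alternatives: with a common array median they were 1598 and 1110, and with no minimum fold 1996 and 3660. Over the other settings that kept all arrays, they ranged from 751 to 1114 and from 1230 to 1887. Leaving out 1 array at a time gave 876 to 930 and 1702 to 1830, and leaving out both 4 h replicate 2 and bone marrow replicate 3, a setting chosen after seeing the data, 895 and 1782. The replicate numbers do not pair the samples: same-numbered arrays of the groups had residual correlations of -0.016, 0.0018 and 0.046, and with the replicate block on the 6 arrays alone the counts were 889 and 1734, against 893 and 1739 without the block. Of 248 called genes named, 216 kept their call under every alternative in which they were tested, 236 did so under each of the 6 that leave out 1 array, and none changed sign. Cma1, Cpa3, Gzma and Icam2 are not among these 248 genes.

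Called genes among these 248 lost their call most often with the mean of all probe sets of a gene, which changes the probe sets measured (15 genes: Bmf, Cenpa, Inhba, Irf4, Itga4, Itgav, Lta4h, Mvk, Nr4a3, Nt5e, Pfkfb3, Slc16a1, Stat3, Tfpi and Vcl). Another probe set of Cenpa, Lta4h, Pfkfb3 and Stat3 had the opposite sign. With the common median 12 lost it, with quantile normalization 9, with a pseudocount of 1 Slc4a1, and with a pseudocount of 60 the 7 genes F3, Mmp13, Mmp9, Mvk, Nt5e, Slc4a1 and Vegfb; the cause was not tested. Among genes not called, Clec7a had -0.020 with quantile normalization, Ccl3 0.086 and Fos 0.058 with the common median, and Ccl3 0.022 without 4 h replicate 2 and bone marrow replicate 3, each of the sign opposite to its main value. Signals near the floor limit the folds of genes at low level.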

Other observations

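Of the 905 genes that rose, 706 had a higher mean at 4 h than in resident peritoneal macrophages and 199 did not. Of the 14 resident macrophage markers, Saa3 stood at 57.2% of the resident mean at 4 h and the other 13 at 0.489% to 4.43%. C1qc, a chain of complement C1q, stood at 2.74%, Prg4, the lubricant proteoglycan 4, at 4.23%, and Timd4, a receptor for phosphatidylserine, at 0.515%. The 3 arrays differed in this share. C1qc had 645, 1429.8 and 372 at 4 h, against 2.82, 4.84 and 3.57 in bone marrow, and replicate 2 reached 4.80% of the resident mean. Prg4 had 938, 2792 and 778 at 4 h, against 43.6, 68.5 and 43.3 in bone marrow, with replicate 2 at 7.86%, and Timd4 had 57.6, 196 and 34.6 at 4 h, against 3.30, 2.05 and 5.22 in bone marrow, with replicate 2 at 1.05%. Ptgis, the prostacyclin synthase, had 144, 420.1 and 105 at 4 h, against 6.32, 9.49 and 12.2 in bone marrow. Selp, which encodes P-selectin, differed little between the 4 h arrays, with 448, 563 and 524 at 4 h, against 53.1, 40.3 and 122 in bone marrow.

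Single arrays stood apart in each group, in different order above and below the others. Signals at least 2 times those of both other arrays of the group were found in 53, 122 and 89 genes for 4 h replicates 1, 2 and 3, and in 67, 35 and 237 genes for bone marrow replicates 1, 2 and 3. Signals at most 0.5 times those of both others were found in 173, 99 and 148 genes for 4 h replicates 1, 2 and 3, and in 119, 214 and 133 genes for bone marrow replicates 1, 2 and 3. Of the 237 genes of bone marrow replicate 3, 66 were among those that fell and 37 among those that rose. In 4 h replicate 1 the genes include Cxcl9, Gbp2 and Cd274, which interferon is known to induce.

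Other promoter elements differed between gene groups, given as shares with no test. The letters CCAAT stood in 14 of 15 promoters of cholesterol synthesis genes, in 20 of 29 of mitosis genes and in 38.7% of genes tested. The hypoxia letters ACGTG stood in 11 of 19 glycolysis promoters and 25.6% of genes tested, and the interferon letters GAAANNGAA in 11 of 18 promoters of interferon-stimulated genes and 7.08% of genes tested. Both strands were searched, and the same letters stood in 37.9%, 19.7% and 8.57% of all promoters.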
